A study of Homo sapiens with 6 samples.

Results

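The 9 genes described here are unconventional myosins, MYO1C, MYO1D, MYO1E, MYO5A, MYO5B, MYO5C, MYO6, MYO9A and MYO10, out of 58381 gene IDs in the deposited table and out of 24 unconventional myosins in its annotation. Their RNA was compared between cells sorted as CD24low and CD44high and cells sorted as CD24high and CD44+ from the human breast line MCF10AT1, with 3 libraries of each. MCF10AT1 is 1 line of mammary epithelial cells derived from MCF10A cells that carry activated HRAS, and all 6 libraries share that background and a medium with horse serum, insulin, EGF, cholera toxin and hydrocortisone. The series title names RUNX factors and breast cancer stem cells, and the table marks CD24low columns CSC and CD24high columns Bulk. The genes were chosen by family, with the difference between CD24low and CD24high in these same libraries already known, so that difference is a description with no test. No label says that replicates came from separate cultures, so every error and p-value measures only how these libraries spread, which may be of technical origin. Values are normalized counts, that is, reads per gene divided by the authors' size factor of the library.

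Unconventional myosins are actin motors that do not assemble into the filaments of muscle-type myosin II. Class I myosins tether membranes to actin, class V myosins carry vesicles and recycling endosomes towards the fast-growing end of actin filaments, and myosin VI walks the opposite way. Class IX myosins carry a domain that switches off small GTPases, and myosin X works at the tips of filopodia. In polarised epithelia MYO5B works with RAB11 proteins on apical recycling endosomes, and its loss causes microvillus inclusion disease of the gut.

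The resemblance within the family is shown by the coding bases of the ATP-binding loop of the motor domain, which bear on whether reads of 1 member could be counted at another. The bases are from the longest protein-coding transcript of each gene in GENCODE 29 (for MYO5B, bases 781 to 822 of 9505), printed 5′ to 3′, and capitals mark bases that differ from MYO5B at the same position.
MYO1C: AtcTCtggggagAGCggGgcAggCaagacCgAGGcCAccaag
MYO1D: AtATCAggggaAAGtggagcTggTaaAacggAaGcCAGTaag
MYO1E: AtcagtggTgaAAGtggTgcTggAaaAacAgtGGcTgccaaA
MYO5A: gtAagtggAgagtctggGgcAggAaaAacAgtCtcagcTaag
MYO5B: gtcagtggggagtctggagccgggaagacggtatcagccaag
MYO5C: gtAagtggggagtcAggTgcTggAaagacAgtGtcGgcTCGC
MYO6: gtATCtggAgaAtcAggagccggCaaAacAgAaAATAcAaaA
MYO9A: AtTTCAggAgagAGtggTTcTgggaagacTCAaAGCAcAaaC
MYO10: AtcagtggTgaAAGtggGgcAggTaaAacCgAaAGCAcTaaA
MYO5A was closest to MYO5B, with 33 of 42 bases identical, and MYO5C had 30. MYO9A had the fewest, 22. Over all annotated transcripts, 5 of 36 pairs of members shared a run of 30 bases and 0 shared a run of 50 bases.

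Most of the 9 genes were lower in CD24low libraries. The difference (CD24low minus CD24high, in log2 of normalized count + 1) was below 0 for 8 genes and above 0 for MYO1C, with a median of -0.32. Of the 16047 genes tested, whose normalized counts averaged 10 or more, a filter that all 9 passed, 51.0% were below 0 and the median was -0.0066. For 6 of the 9 genes all CD24low libraries were lower than all CD24high libraries, and for MYO1C all were higher, while the groups overlapped for MYO5A and MYO9A. Over the 16047 genes the groups did not overlap for 19.5%, of which CD24low was higher for 10.2% and lower for 9.32% of all genes. Nothing is read from the distance to these shares, since the genes were picked with the contrast known.

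**Figure D1:**
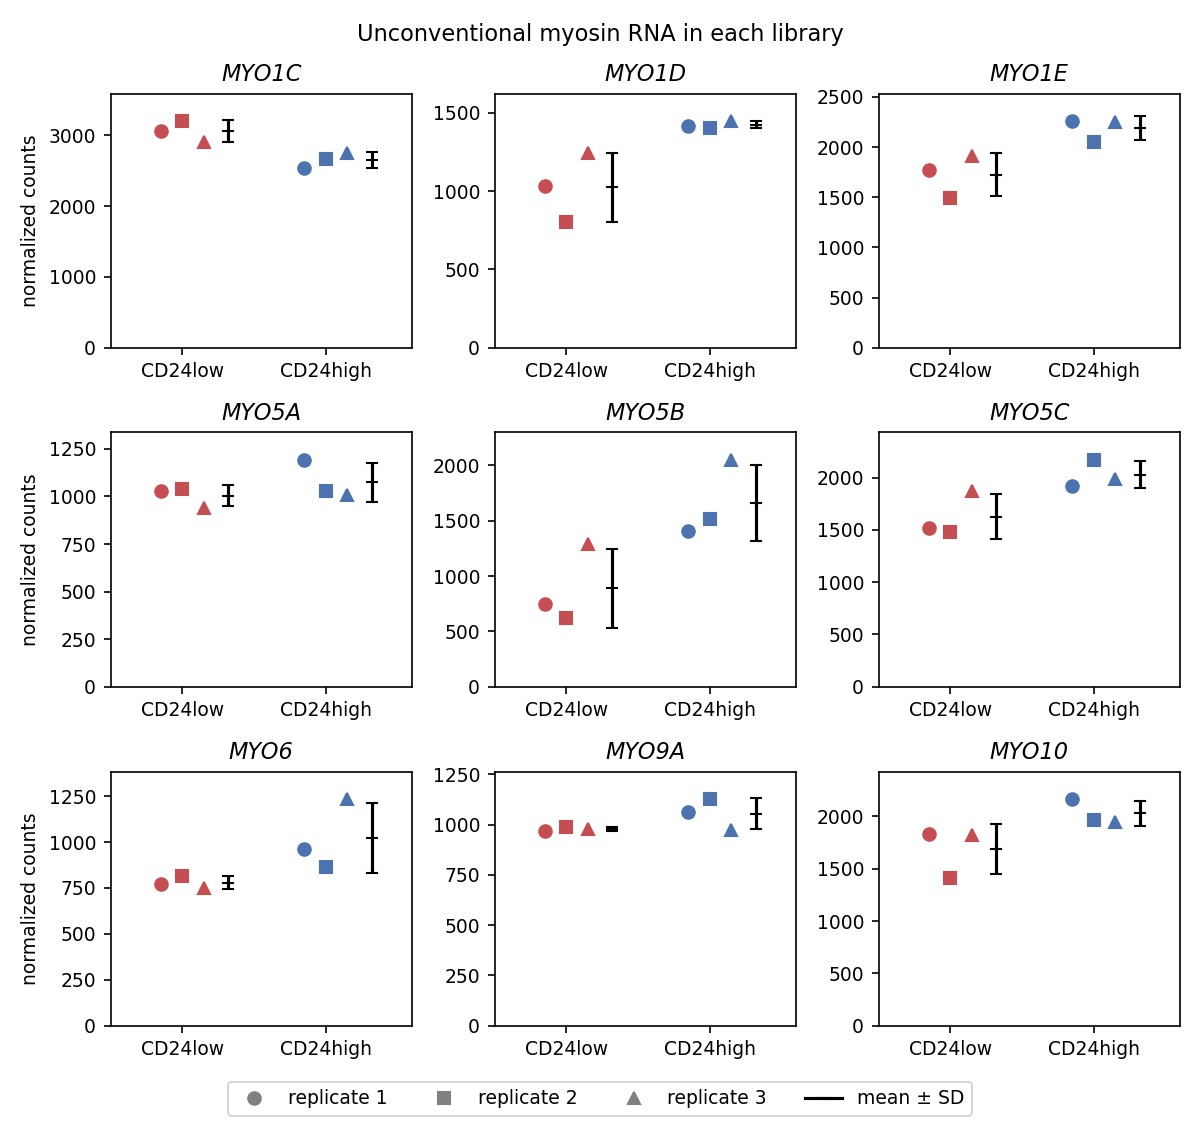
Normalized counts (vertical axes, from 0) of the 9 myosins in 3 CD24low and 3 CD24high libraries, with a symbol per replicate number and a bar for mean ± SD. MYO1C is higher in every CD24low library, MYO5A and MYO9A overlap, and the other 6 are lower in every CD24low library.

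The libraries held 16691162 to 27293177 reads. Ribosomal RNA (rRNA) genes were counted together with mitochondrial rRNA genes and rRNA pseudogenes. Their reads made up 7.15%, 7.07% and 1.97% in CD24low replicates 1, 2 and 3. In CD24high replicates 1, 2 and 3 they made up 1.30%, 2.27% and 10.2%. For the 9 myosins and RAB25 the difference is therefore also given within the low share (CD24low replicate 3 minus the mean of CD24high replicates 1 and 2) and within the high share (the mean of CD24low replicates 1 and 2 minus CD24high replicate 3). The sorted marker CD24 was at 587.9, 328.6 and 1370 normalized counts in the CD24low and 4043, 2325 and 5687 in the CD24high replicates. RNA of CD44, the other sorted marker, was not higher in the cells labelled CD44high, with 7547 ± 716 normalized counts in CD24low and 8475 ± 562 in CD24high libraries (SD, n = 3 each), which overlapped (difference -0.17, limma adjusted p = 0.56). The label comes from cell sorting while these values are RNA, so they do not measure the sort. CD24low replicate 3 was both the low-share and the most CD24-rich library of its group. Likewise CD24high replicate 3 was the high-share, the most CD24-rich and the shallowest library of its group, so these properties cannot be told apart. The CD24 difference was -1.16 within the low and -3.69 within the high rRNA share. All 6 epithelial markers (EPCAM, CDH1, KRT5, KRT14, KRT18 and KRT8) were present and summed to 65032 to 99579 normalized counts in CD24low and 92983 to 114402 in CD24high libraries. That epithelial sum was mostly KRT5, KRT8 and KRT18. Each of the 6 had a difference below 0, with a median of -0.50. EPCAM, CDH1 and KRT5 were lower in every CD24low library, as were 9.32% of all genes tested. Of 6 fibroblast markers only COL1A1 and DCN had a mean of at least 10, and LUM had no read. The sum was 879 to 3827 in CD24low and 48.2 to 354.7 in CD24high libraries. In CD24low libraries it was nearly all DCN, and COL1A2 had no read there. The 5 immune markers summed to 70.5 to 158.7 in CD24low and 49.8 to 95.0 in CD24high libraries, nearly all CD14, with no read of CD3E. The 4 endothelial markers, mostly PECAM1, summed to 104.9 to 342 in CD24low and 87.1 to 396.2 in CD24high libraries, with VWF at or near 0. The 5 melanocyte markers, nearly all MITF, summed to 191 to 275 in CD24low and 302.3 to 402.5 in CD24high libraries, with no read of TYR. The part of these markers and of the rRNA share in the myosin differences was not tested. In sorted bulk RNA, fewer cells of a type and less RNA per cell cannot be told apart.

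MYO5B had the largest difference of the 9 genes. This motor of recycling endosomes (ENSG00000167306.19, hg38 chromosome 18, 49822813 to 50195093, minus strand) had 748.3, 621.8 and 1293.9 normalized counts in CD24low replicates 1, 2 and 3, against 1409.9, 1515.4 and 2051.5 in CD24high replicates 1, 2 and 3. CD24low replicate 3 lay 115.9 normalized counts below the lowest CD24high library, and the other CD24low libraries lay far below it. The means were 888 ± 357 in CD24low and 1659 ± 344 in CD24high libraries (SD, n = 3 each), a fold of 0.516 and a log2 difference of -0.95 (SE 0.25). That difference was -0.18 within the low and -1.59 within the high rRNA share. It was -1.26 without CD24low replicate 3 and -0.73 without CD24low replicate 2. The highest library, CD24high replicate 3, was 3.30-fold above the lowest, CD24low replicate 2, the widest span among the 9 genes. Beside these values, the differences of the 6 epithelial markers ran from -0.90 (CDH1) to -0.31 (KRT5) over all 6 libraries. For CDH1 the adjusted p was 0.17 with limma and 0.013 with DESeq2. The marker differences ran from -0.25 (CDH1) to 0.23 (KRT8) within the low and from -1.47 (KRT14) to -0.45 (KRT5) within the high share.

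The 3′ part of MYO5B overlaps other annotated genes. AC090227.1 on the same strand shares 551 of its 936 exonic bases with MYO5B, and SNHG22 on the opposite strand shares 229 bases. AC090227.1 had 550.0, 444.2 and 605.3 normalized counts in the CD24low and 599.1, 578.9 and 549.4 in the CD24high replicates. These groups overlapped, with a difference of -0.12 (SE 0.14). SNHG22 averaged 298 ± 39.9 in CD24low and 299 ± 51.3 in CD24high libraries (SD, n = 3 each), also overlapping. The treatment of reads in shared exons, and of strand in these stranded libraries, is not given in the sources used here. Both genes were named after their values were seen.

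The other class V motors differed less than MYO5B. MYO5C, a motor of glandular and secretory epithelia (ENSG00000128833.12, chromosome 15, 52192322 to 52295798, minus strand), had 1522.2, 1481.5 and 1872.8 normalized counts in the CD24low and 1924.3, 2171.4 and 1982.8 in the CD24high replicates. The groups were 51.5 normalized counts apart, again with CD24low replicate 3 nearest to the CD24high libraries. The means of MYO5C were 1626 ± 215 in CD24low and 2026 ± 129 in CD24high libraries (SD, n = 3 each), with a difference of -0.32 (SE 0.12) that was -0.13 within the low and -0.40 within the high rRNA share. MYO5A, the motor that carries melanosomes in pigment cells (ENSG00000197535.14, chromosome 15, 52307283 to 52529050, minus strand), had 1031.3, 1041.1 and 940.3 normalized counts in the CD24low and 1193.3, 1027.4 and 1006.7 in the CD24high replicates. The groups overlapped, and here CD24low replicate 3 was the lowest library of all. The difference of -0.10 was smaller than its SE of 0.11, and it was -0.24 within the low and 0.04 within the high rRNA share. Leaving out CD24high replicate 1 gave -0.02, and leaving out CD24low replicate 3 gave -0.05.

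Ratios between class V genes within a library do not depend on how libraries are scaled to each other. The log2 ratio of MYO5A to MYO5B, in normalized counts per kilobase (kb) of merged exons, was 0.15, 0.44 and -0.77 in the CD24low and -0.55, -0.87 and -1.34 in the CD24high replicates. MYO5A was thus above MYO5B per length in CD24low replicates 1 and 2 and below it in the 4 other libraries, and CD24low replicate 3 lay among the CD24high values. The log2 ratio of MYO5B to MYO5C was -1.09, -1.31 and -0.60 in the CD24low and -0.51, -0.58 and -0.01 in the CD24high replicates. Here the groups did not overlap, although CD24low replicate 3 and CD24high replicate 2 were nearly level. The log2 ratio of MYO5A to MYO5C averaged -1.06 ± 0.27 in CD24low and -1.29 ± 0.20 in CD24high libraries (SD, n = 3 each), and the groups overlapped.

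**Figure D2:**
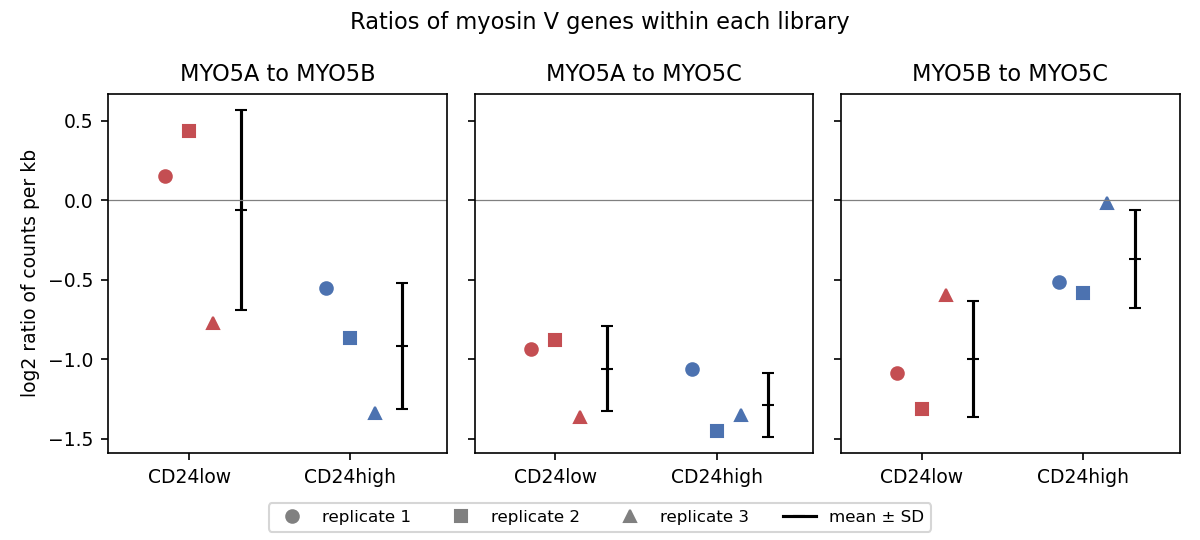
Log2 ratios of normalized counts per kb between class V myosin genes within each library, CD24low left of CD24high, with a symbol per replicate number and a bar for mean ± SD. The ratio of MYO5A to MYO5B averages -0.06 in CD24low and -0.92 in CD24high libraries, with CD24low replicate 3 at -0.77.

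MYO5C and MYO5A lie 11.5 kb apart on chromosome 15 and are read from the same strand. The protein-coding genes beside them are GNB5, a G protein beta subunit, next to MYO5C, and ARPP19, an inhibitor of a mitotic phosphatase, next to MYO5A. GNB5 had 394.0, 433.7 and 379.1 normalized counts in the CD24low and 356.8, 363.5 and 334.6 in the CD24high replicates, a difference of 0.19 (SE 0.12, limma adjusted p = 0.54). ARPP19 had 4552.5, 3291.5 and 4450.9 in the CD24low and 6928.1, 4730.1 and 4570.5 in the CD24high replicates, a difference of -0.39 (SE 0.18, limma adjusted p = 0.39). Neither passed the test, although the groups did not overlap for either. In chromosome order the differences of GNB5, MYO5C, MYO5A and ARPP19 were 0.19, -0.32, -0.10 and -0.39.

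The 250 bases before the RefSeq start (GRCh38.p14) of the 3 class V genes are shown because these paralogs differed in the size of their difference. They lie at chr15:52529051-52529300 for MYO5A, chr18:50195148-50195397 for MYO5B and chr15:52295805-52296054 for MYO5C, on the minus strand, printed 5′ to 3′ along the gene. Capitals mark the E-box CACCTG or its reverse complement CAGGTG, letters that the SNAI and ZEB repressors of epithelial genes recognise. The RUNX letters TGTGGT, or ACCACA on the other strand, were searched as well, and had no match in these 3 windows.
MYO5A: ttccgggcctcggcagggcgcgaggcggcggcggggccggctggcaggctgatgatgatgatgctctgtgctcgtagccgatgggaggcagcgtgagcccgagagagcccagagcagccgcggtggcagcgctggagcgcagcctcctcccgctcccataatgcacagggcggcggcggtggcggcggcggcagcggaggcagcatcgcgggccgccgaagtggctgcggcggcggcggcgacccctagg
MYO5B: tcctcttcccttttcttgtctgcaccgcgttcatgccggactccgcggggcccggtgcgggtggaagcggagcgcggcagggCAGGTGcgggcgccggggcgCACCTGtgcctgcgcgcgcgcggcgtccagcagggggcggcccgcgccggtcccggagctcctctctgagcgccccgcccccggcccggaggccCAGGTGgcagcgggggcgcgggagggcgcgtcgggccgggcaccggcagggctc
MYO5C: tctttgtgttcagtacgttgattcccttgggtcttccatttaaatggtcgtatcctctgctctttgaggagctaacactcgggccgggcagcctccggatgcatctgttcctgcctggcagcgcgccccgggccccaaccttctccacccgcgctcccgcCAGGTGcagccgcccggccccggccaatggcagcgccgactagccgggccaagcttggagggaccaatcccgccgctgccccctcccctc
The E-box letters stood at 168, 148 and 54 bases before the start of MYO5B, at 90 bases before that of MYO5C, and not in the window of MYO5A. Of 35116 RefSeq windows of this length, 17.49% held the E-box and 0.464% held it at least 3 times. These shares are not matched for base composition. G and C made up 75.2%, 80.0% and 65.6% of the windows of MYO5A, MYO5B and MYO5C, against a median of 58.0% over all windows. All 9 genes had a RefSeq window. Beyond class V, the E-box was in the window of MYO1D and in 1 of 4 windows of MYO1C. The RUNX letters were in the window of MYO10, 113 bases before its start, in no other window of the 9 genes, and in 10.98% of all windows. A match of letters is a description and not a bound site.

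The class I myosins differed in both directions. MYO1C, which tethers vesicles to actin during exocytosis and has a nuclear isoform (ENSG00000197879.15, chromosome 17, 1464186 to 1492812, minus strand), had 3066.4, 3205.6 and 2903.3 normalized counts in the CD24low and 2535.1, 2671.3 and 2755.8 in the CD24high replicates. All CD24low libraries were higher, by at least 147.5 normalized counts. The means of MYO1C were 3058 ± 151 in CD24low and 2654 ± 111 in CD24high libraries (SD, n = 3 each), a fold of 1.15 and a difference of 0.20 (SE 0.10). It was 0.16 within the low and 0.19 within the high rRNA share, values that are nearly level, unlike those of MYO5B.

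MYO1D, known for setting left-right asymmetry in Drosophila and zebrafish (ENSG00000176658.16, chromosome 17, 32492522 to 32877177, minus strand), had 1034.8, 799.5 and 1241.0 normalized counts in the CD24low and 1419.0, 1403.8 and 1449.5 in the CD24high replicates. The CD24high libraries were nearly level, with a coefficient of variation of 1.63%, and the CD24low libraries, at 21.6%, were spread out below them. The means of MYO1D were 1025 ± 221 in CD24low and 1424 ± 23.3 in CD24high libraries (SD, n = 3 each), with a difference of -0.50 (SE 0.15) that was -0.19 within the low and -0.67 within the high rRNA share and -0.33 without CD24low replicate 2. MYO1E, a motor of endocytosis that is needed in kidney podocytes (ENSG00000157483.8, chromosome 15, 59132434 to 59372900, minus strand), had 1769.0, 1492.9 and 1910.0 normalized counts in the CD24low and 2262.1, 2050.9 and 2247.3 in the CD24high replicates. The groups did not overlap, and the CD24low libraries had the same order as for MYO1D, with replicate 3 highest and replicate 2 lowest. The difference of MYO1E was -0.35 (SE 0.12), with -0.17 within the low and -0.47 within the high rRNA share. FAM81A overlaps MYO1E on the opposite strand, with a level at 7.44% of that of MYO1E.

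Myosin VI had its spread in the other group. MYO6, which draws endocytic vesicles inwards and anchors stereocilia in the ear (ENSG00000196586.13, chromosome 6, 75749192 to 75919537, plus strand), had 770.4, 816.7 and 751.3 normalized counts in the CD24low and 960.9, 866.4 and 1236.1 in the CD24high replicates. The CD24low libraries were close together and all lower, while CD24high replicate 3 stood above the rest. The means were 779 ± 33.6 in CD24low and 1021 ± 192 in CD24high libraries (SD, n = 3 each). The difference of -0.37 (SE 0.14) was -0.28 within the low and -0.64 within the high rRNA share, and it was -0.23 without CD24high replicate 3.

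MYO9A and MYO10 represent the GTPase-regulating and the filopodial classes. MYO9A, with a GTPase-activating domain in its tail (ENSG00000066933.15, chromosome 15, 71822289 to 72118577, minus strand), had 966.9, 986.7 and 976.6 normalized counts in the CD24low and 1061.3, 1129.2 and 973.1 in the CD24high replicates. CD24high replicate 3 lay within the narrow CD24low range, and the difference of -0.11 was about the size of its SE of 0.11. It was -0.16 within the low and 0.0054 within the high rRNA share, -0.06 without CD24high replicate 2 and -0.16 without CD24high replicate 3. SENP8 overlaps MYO9A on the opposite strand, with a level at 3.84% of that of MYO9A. MYO10, which carries integrins to filopodial tips (ENSG00000145555.14, chromosome 5, 16661914 to 16936276, minus strand), had 1827.2, 1409.8 and 1819.9 normalized counts in the CD24low and 2168.3, 1968.9 and 1950.7 in the CD24high replicates. All CD24low libraries of MYO10 were lower, replicate 2 by far the most. The means were 1686 ± 239 in CD24low and 2029 ± 121 in CD24high libraries (SD, n = 3 each), with a difference of -0.28 (SE 0.13) that was -0.18 within the low and -0.28 within the high rRNA share and -0.15 without CD24low replicate 2.

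**Figure D3:**
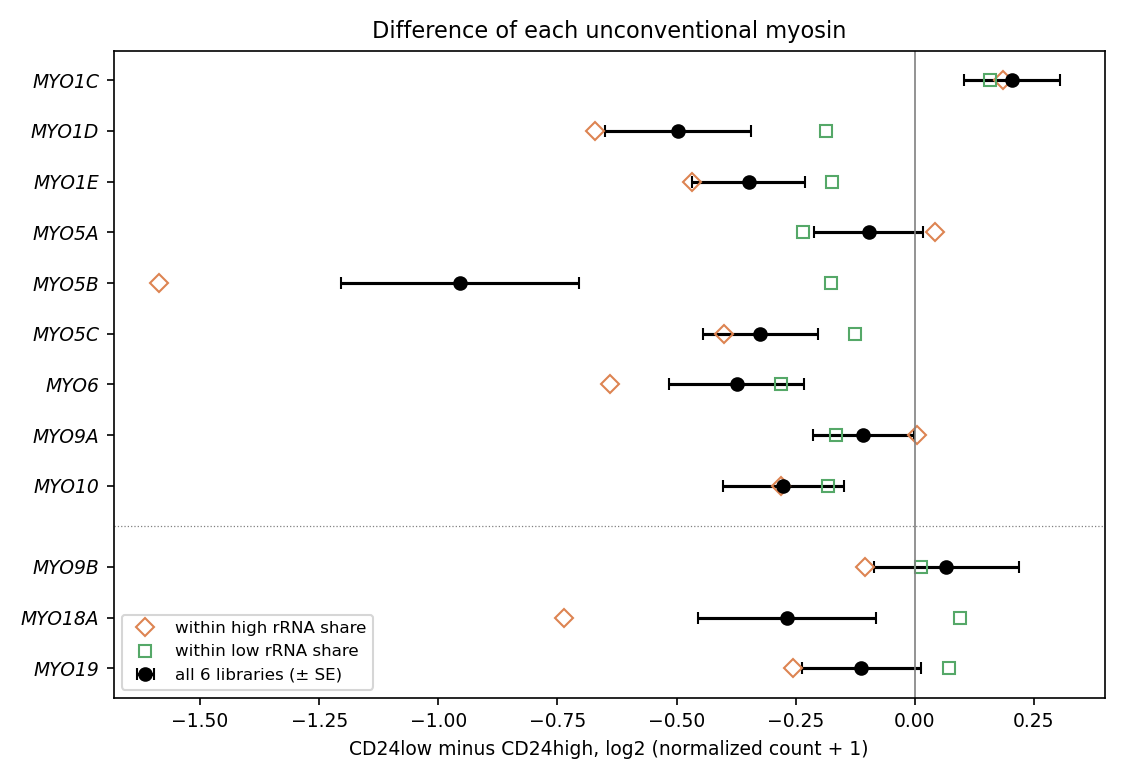
Difference (CD24low minus CD24high, log2 of normalized count + 1) of the 9 myosins, above the dotted line, and of MYO9B, MYO18A and MYO19, below it; black points are all 6 libraries ± SE, and open symbols are the differences within high (diamonds) and low (squares) rRNA share. MYO5B lies lowest over all libraries (-0.95) and within the high share (-1.59), but within the low share (-0.18) it lies among the other members.

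Of the 15 unconventional myosins that are not among the 9, 4 passed the filter, and 3 of these are given here. MYO18A, a Golgi-linked myosin, had 2159, 2369 and 2699 normalized counts in the CD24low and 2154, 2968 and 3768 in the CD24high replicates. These groups overlapped, with a difference of -0.27 (SE 0.19, limma adjusted p = 0.57). MYO19, which sits on mitochondria, had a difference of -0.11 (limma adjusted p = 0.73), and MYO9B, the relative of MYO9A, one of 0.07 (SE 0.15, limma adjusted p = 0.88). The other 11 did not pass the filter, and MYO3A had no read in any library, which allows up to 2.49 to 4.38 normalized counts per library for counting error alone.

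Per length, MYO1C stood highest of the 9 genes in both groups, with 377 ± 18.7 normalized counts per kb in CD24low and 327 ± 13.7 in CD24high libraries (SD, n = 3 each here and below), without overlap with the next gene. That was MYO1E, with 189 ± 23.3 per kb in CD24low and 240 ± 12.9 in CD24high libraries. In CD24low libraries each gene from MYO1E down through MYO5C and MYO1D overlapped the next one, as far as MYO10, which was above MYO6 without overlap. In CD24high libraries MYO1E, MYO5C and MYO1D followed each other without overlap. These orders and overlaps are for merged exons of all annotated transcripts, and another length can change them. Merged exons and the longest coding transcript had 9106 and 8673 bases for MYO1E. They had 10045 and 6971 bases for MYO5C, and 8188 and 5563 for MYO1D. MYO5B was in position 7 of 9 by CD24low mean, with 84.7 ± 34.1 per kb, overlapping its neighbours MYO6 (88.7 ± 3.83) and MYO5A (77.3 ± 4.28). By CD24high mean it was in position 5, with 158 ± 32.8 per kb, overlapping its neighbours MYO1D (174 ± 2.84) and MYO10 (145 ± 8.65). The positions and neighbours of MYO5B likewise depend on the length used, with 10488 bases of merged exons and 9505 in its longest coding transcript. By merged exons MYO9A was last in both groups, without overlap with MYO5A above it. It had 48.2 ± 0.49 per kb in CD24low and 52.1 ± 3.86 in CD24high libraries. Its place depends on the length used, since its merged exons had 20253 bases and its longest coding transcript 12411. For MYO5A these lengths were 12988 and 12225 bases.

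The per-kb levels of all 24 unconventional myosins summed to 2086 ± 192 normalized counts per kb in CD24low and 2497 ± 122 in CD24high libraries (SD, n = 3 each), and the 9 genes made up 59.9% to 62.6% of that sum in CD24low and 58.9% to 61.5% in CD24high libraries. MYO1C held 15.7% to 20.9% of the sum in CD24low and 12.5% to 13.9% in CD24high libraries, without overlap. MYO5B held 3.13% to 5.41% in CD24low and 5.39% to 7.46% in CD24high libraries, which overlapped slightly.

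**Figure D4:**
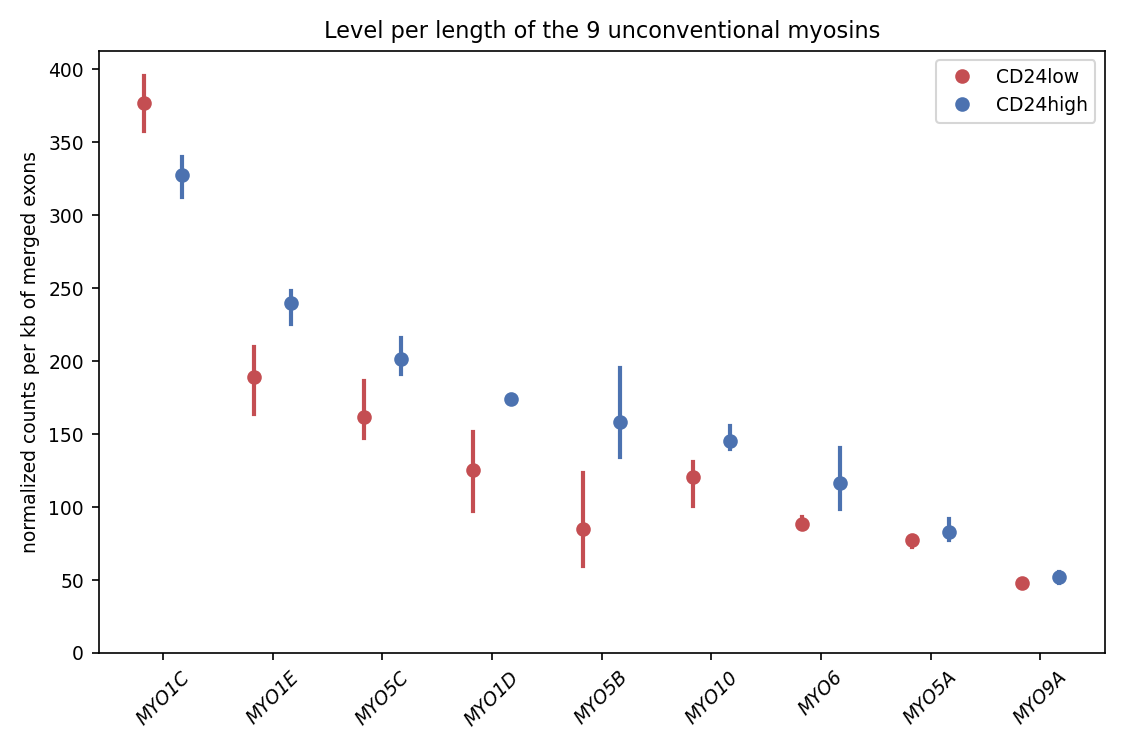
Normalized counts per kb of merged exons of the 9 myosins, CD24low left of CD24high in each pair, in the order of the CD24high mean; points are means and lines run from the lowest to the highest of 3 libraries. MYO1C is highest in both groups, and MYO5B averages 84.7 per kb in CD24low and 158 in CD24high libraries.

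The likeness of other genes to MYO1C and MYO5B, the genes with the highest and the lowest difference, was measured as the root mean square (RMS) difference of centred log2 values over the 6 libraries, among 11469 genes that averaged 100 normalized counts or more. The genes most like MYO1C were ACOT7 (RMS 0.020), an acyl-CoA thioesterase, NOTCH2 (0.023), a Notch receptor, and RTN3 (0.023), a reticulon of the endoplasmic reticulum. Among those most like MYO5B were KLK6 (RMS 0.082), a kallikrein protease, and ADGRF1 (0.084), an adhesion G protein-coupled receptor. KLK6 had 259.1, 210.1 and 455.5 normalized counts in the CD24low and 453.1, 537.4 and 796.3 in the CD24high replicates. As for MYO5B, CD24high replicate 3 was highest and CD24low replicate 3 was the highest of its group, but for KLK6 it lay just inside the CD24high range. These genes were picked for this likeness, which is a description.

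Genes that work with these myosins were looked at in lists of 64 genes, the 15 other unconventional myosins included, of which 51 passed the filter. None of the 51 passed limma at an adjusted p of 0.05, while 5 had an unadjusted p under 0.05. Over all 16047 genes limma called 0.00% (2164 genes had an unadjusted p under 0.05), edgeR's quasi-likelihood test called 0.00% and DESeq2 called 2.51%. Of the 51, edgeR called 0 and DESeq2 called 1, MYL9. The median difference of the 51 genes was -0.03, against -0.0066 over all genes tested. The groups did not overlap for 5 of the 51 that were higher and 3 that were lower in CD24low libraries. Over all genes tested those shares were 10.2% and 9.32%.

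MYL9, the regulatory light chain of myosin II in smooth muscle and contractile cells, had 25.6, 45.9 and 12.7 normalized counts in the CD24low and 2.49, 6.92 and 7.31 in the CD24high replicates. It was higher in every CD24low library, at low counts, with a difference of 2.07 (SE 0.53). DESeq2 gave MYL9 an adjusted p of 0.036 and limma one of 0.17. MYL9 averaged 28.1 normalized counts in CD24low and 5.57 in CD24high libraries, so it passed the filter on low values only through the CD24low libraries, and its call is no support for the list. Of the 5 tested genes of nonmuscle myosin II the median difference was 0.14, and the heavy chain MYH10 had one of 0.28 (SE 0.12, limma adjusted p = 0.33). MYH10 was higher in every CD24low library. Among 8 tested light chains and chaperones of myosins the median difference was 0.04. The highest values there were those of UNC45A, a myosin chaperone (0.25, limma adjusted p = 0.37), and CALM3, a calmodulin gene whose protein is a light chain of unconventional myosins (0.22, limma adjusted p = 0.45). UNC45A was also higher in every CD24low library, while the groups overlapped for CALM3.

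The 14 partners of class V myosins had a median difference of -0.05, with 7 below 0 and 7 above. RAB25, an epithelial RAB11 relative that binds class V tails, had 262.7, 250.3 and 539.7 normalized counts in the CD24low and 505.4, 584.8 and 626.8 in the CD24high replicates. CD24low replicate 3 lay within the CD24high range, and the others lay far below it. The difference of RAB25 was -0.79 (SE 0.26, limma adjusted p = 0.25, DESeq2 adjusted p = 0.14), with -0.01 within the low and -1.29 within the high rRNA share. RAB11A, the RAB of recycling endosomes, had 1753, 1726 and 2126 normalized counts in the CD24low and 2697, 2294 and 2243 in the CD24high replicates. The groups did not overlap, with a difference of -0.37 (SE 0.12) and a limma adjusted p of 0.25. RAB11FIP1, an adaptor between RAB11 and recycling endosomes that was named after its values were seen, was the other partner without overlap (598 ± 28.4 in CD24low and 696 ± 55.8 in CD24high libraries, limma adjusted p = 0.45). The groups did not overlap for these 2 of the 14 partners, against 19.5% of all genes tested. RAB11B, a close relative of RAB11A also named after its values were seen, had a difference of 0.27 (SE 0.25, limma adjusted p = 0.67).

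No adaptor of myosin VI, filopodial gene or small GTPase of the RHOA group on the lists passed with limma, edgeR or DESeq2. The 8 adaptors of myosin VI had a median difference of -0.09, and the largest sizes were those of DAB2, an endocytic adaptor (-0.46, SE 0.25, limma adjusted p = 0.46), and GIPC1, an adaptor of receptor endocytosis (-0.35, SE 0.17, limma adjusted p = 0.39). The 9 filopodial genes had a median of -0.07, with EVL, an actin polymerase of the VASP family, at 0.18 (limma adjusted p = 0.61) and DIAPH2, a formin, at -0.12 (limma adjusted p = 0.72). The small GTPases RHOA, RHOB and RHOC, which shape actin and contractility, had a median of 0.03. RHOB had a difference of 0.20 (SE 0.23, limma adjusted p = 0.74) and RHOC one of 0.03 (SE 0.11, limma adjusted p = 0.92).

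**Figure D5:**
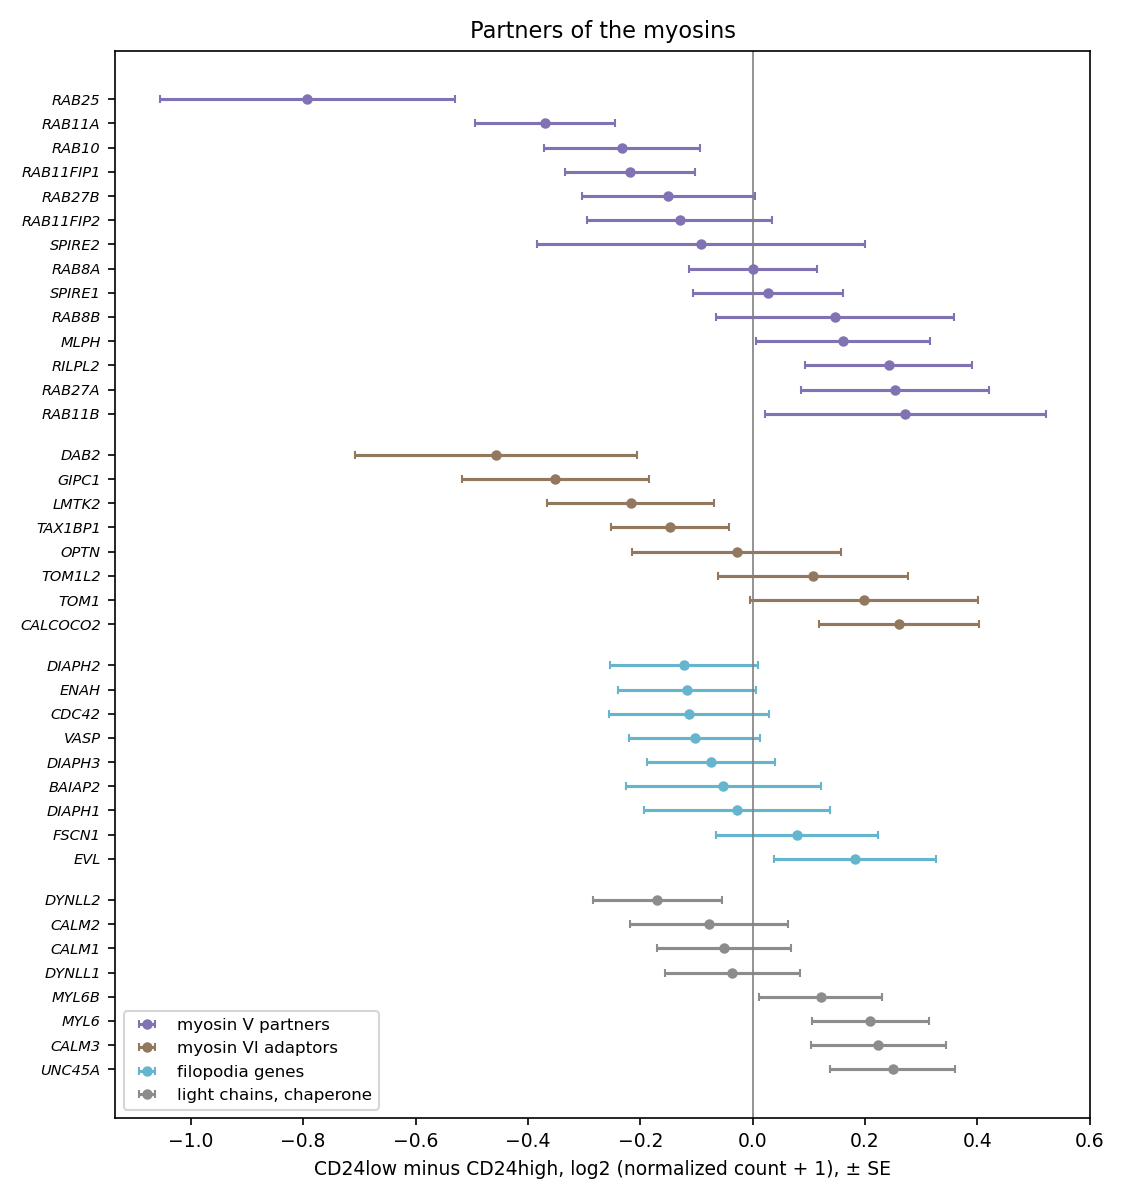
Difference (CD24low minus CD24high, log2 of normalized count + 1, ± SE) of the tested genes in 4 of the partner lists, coloured by list and ordered by difference within each. RAB25 (-0.79) and DAB2 (-0.46) lie lowest, and the values of the 9 filopodial genes lie between -0.12 and 0.18.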

How the data were processed

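Per the labels' protocols, Trizol RNA was depleted of ribosomal RNA and made into stranded random-primed libraries. Per the submitters' processing notes and the values themselves, the authors deposited for each gene a signal that is never negative: its count over the library's DESeq2 size factor. STAR 2.5.2, R 3.5.0 and hg38 are named there; a counter, strand setting, annotation release or DESeq2 version is not given in the sources used here. All values were whole multiples of 1 step per library (100% within 0.1 reads), so reads were recovered; 1 read was worth 0.83 to 1.46 normalized counts. Counts of 3 reads were taken as the limit that a count of 0 allows, for counting error only.

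Of 58381 gene IDs, 58261 matched GENCODE 29, 56933 of them with their version. Genes averaging 10 or more normalized counts were tested with limma 3.58.1 (R 4.3.3) on log2 of normalized count + 1, which understates changes of low genes, two-sided, with a mean-variance trend, group as the only term and Benjamini-Hochberg adjustment at 0.05. On the recovered reads edgeR 4.0.16 (quasi-likelihood) and DESeq2 1.42.0 were run. Alternatives were pseudocounts of 0.5 and 5, no filter or a mean of 50, total or TMM scaling, the replicate number as a block, the rRNA share (split at 5%) as a covariate or within its classes, and each library left out. Scaling to the total moved the median of all genes to -0.04 and TMM to -0.0058. The fit was tested on simulated data. Replicates of a group differed by more than sampling noise, so each library was counted.

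The 9 genes, the lists and the tests were chosen with earlier results of these data known. Named genes were the 9, other unconventional myosins that were tested, list genes past limma or DESeq2 with the 2 largest differences per list, the 3 genes most like the extremes of the 9, and the neighbours of MYO5C and MYO5A; others are marked in the text, and some genes that the rule names are not reported here. Levels per kb used the merged exons of each gene, which join all its annotated transcripts. Levels, orders and shares compared between genes depend on that length. Promoter windows came from RefSeq (GRCh38.p14). Figures were drawn with matplotlib 3.10.9 (Python 3.11.15).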

Additional observations from a re-analysis of the deposited data

How the results depend on the processing

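Of the 9 myosins, 8 were lower and MYO1C higher in CD24low libraries under every fit across all genes, and under each library left out; within the high rRNA share alone MYO5A (0.04) and MYO9A (0.0054) were not lower. The groups did not overlap for 7 of the 9 under total and TMM scaling too. That count is a description, since the share over all genes was not computed under these scalings. The group difference of the log2 ratio was 0.86 for MYO5A to MYO5B (0.61 to 1.21 with 1 library left out), 0.23 for MYO5A to MYO5C (0.14 to 0.38) and -0.63 for MYO5B to MYO5C (-0.83 to -0.45). Of all genes tested limma called 0, but 164 with no filter on low values, 402 genes were called by DESeq2, and leaving out 1 library gave 0 to 366, the 366 without CD24low replicate 3. Of the list genes limma called 0, DESeq2 1, and leaving out 1 library 0 to 2, the 2 without CD24low replicate 3. The cause of these shifts was not tested.

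Replicate numbers are shared by the groups, but no label says that a number marks a shared culture. The correlation of deviations from the group means was 0.266, 0.301 and 0.051 for the same-numbered libraries 1, 2 and 3. Unlike numbers gave -0.263 to 0.075, the highest being CD24low replicate 3 with CD24high replicate 1. Apart from CD24low replicate 3, each library correlated best with the same-numbered library of the other group. These values do not settle whether the numbers pair the libraries. The main fit did not pair them because no label states it. A replicate block in limma gave calls for 716 genes and 2 list genes, RAB25 lower and MYL9 higher. CD24high replicate 3 was the shallowest library, with 16691162 reads.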
